A study of Arabidopsis thaliana with 4 samples.

Results

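Seedlings of an Arabidopsis control line grown with kanamycin were compared with seedlings of the same line grown without it, 1 library of poly(A) RNA a side. The genes described are those whose FPKM (fragments per kilobase of transcript, scaled to the mapped fragments of the library) averaged 20 or more across the study's 4 libraries, 3702 of 33539 annotated genes and assembled loci with a usable value. The control line, SALK_064816C, is homozygous for a T-DNA that carries the kanamycin resistance gene NPTII and lies upstream of the start codon of TT4 (chalcone synthase), with no gene disrupted and no visible phenotype according to the study. The other line, wbc19 (SALK_107731), is homozygous for a T-DNA of the same kind in WBC19, which encodes an ABC transporter. Whole seedlings of both lines were harvested at 5 days of age from Murashige and Skoog medium, with 50 mg/l kanamycin or with 0 mg/l. The 4 libraries are called control + kan, control no kan, mutant + kan and mutant no kan. Each is 1 library, so no difference in the text has a replicate, an error between plants or a p-value. Members are described by size, 2-fold meaning a difference of at least 1 on the log2(FPKM + 1) scale, and a positive log2 difference means a higher level with kanamycin.

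Kanamycin is an aminoglycoside that binds the small subunit of bacterial ribosomes and disturbs decoding. Plastids and mitochondria have ribosomes of the bacterial type, and plants without a resistance gene bleach on the antibiotic because plastid translation is impaired. NPTII, the enzyme expressed from the T-DNA in both lines, phosphorylates kanamycin and so inactivates it. The control line is therefore a kanamycin-resistant reference rather than wild type. The wbc19 line, by contrast, is described by the study as sensitive to kanamycin at the dose used, despite NPTII. With kanamycin its seedlings had stunted roots and green leaves, while control seedlings showed no visible symptoms. The part of this difference between lines in the mutant-line values was not tested.

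WBC19, listed as ABCG19, was at 0 FPKM in both control-line libraries, against 2.30 FPKM in mutant + kan and 3.00 FPKM in mutant no kan. These values are near the floor, since 3 reads on 1 kb were worth 3.92 FPKM in mutant + kan and 2.25 FPKM in mutant no kan. Their direction is opposite to the labels of the lines but rests on few reads, and the names here are those of the libraries as labelled. TT4 had 80.8 FPKM in control + kan and 86.3 FPKM in control no kan, and 190 FPKM in mutant + kan and 215 FPKM in mutant no kan, so that the gene beside the insertion of the control line was lower in both control-line libraries than in both mutant libraries. An exchange of labels was not tested. The libraries differed in depth: from the spacing of the smallest values, 1 read on 1 kb of transcript was worth 0.64 FPKM in control + kan and 1.24 FPKM in control no kan, against 1.31 FPKM in mutant + kan and 0.75 FPKM in mutant no kan. The median member with an estimate rested on 90.8 reads in control + kan and 37.6 reads in control no kan, and 279 and 134 members were at 0 in these libraries. Within the control line the deeper library is also the kanamycin one, so depth and kanamycin cannot be told apart there. In the mutant line the deeper library is the one without kanamycin. Genes and loci above 0 numbered 11090 in control + kan and 15072 in control no kan, and 13217 in mutant + kan and 9013 in mutant no kan. In each line the library deeper by the read estimate thus listed fewer genes, and the reason was not tested. Poisson intervals in the text cover counting error only and not this difference. Spearman's rho of FPKM across the 3702 members was 0.50 between control + kan and control no kan, 0.62 between control no kan and mutant + kan, and 0.26 between control + kan and mutant no kan (genes are not independent replicates). Markers of green shoot summed to 13232 FPKM in control + kan and 15437 FPKM in control no kan, with 0 of 6 genes past 2-fold. Root markers, on which the PYK10 myrosinase weighs most, summed to 687 FPKM in control + kan and 1021 FPKM in control no kan, with 4 and 3 of 11 genes at 0. Markers of dividing cells summed to 10.5 FPKM in control + kan and 21.6 FPKM in control no kan (3 and 2 of 5 genes at 0), and those of stored seed to 36.4 FPKM and 12.8 FPKM in the same order of libraries (9 and 7 of 10 genes at 0). Guard cell markers summed to 332 FPKM in control + kan and 206 FPKM in control no kan, with 1 and 2 of 3 genes at 0. Whole seedlings mix these tissues, and fewer cells of a type and less RNA per cell cannot be told apart. The part of tissue composition and depth in the differences that follow was not tested.

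Of the 3702 members, 901 (24.3%) were at least 2-fold higher in control + kan than in control no kan, 817 (22.1%) were at least 2-fold lower, and 46.4% were past 2-fold in either direction. The median log2 difference was 0.06, with quartiles of −0.83 and 0.97. The same size rule applied to mutant + kan against mutant no kan gave 25.0% higher and 28.1% lower, and a median of −0.06. These shares are the background against which each group of genes is read, but they are pooled over abundance. The share past 2-fold is smaller among abundant genes, as given below, so the ribosomal and photosynthetic lists are also set beside their abundance class. The centring matters for direction: when the libraries were rescaled by their upper quartiles, a shift of −0.75 on the log2 scale, the median of all members fell to −0.61 and 480 members were higher and 1428 lower. Under that scaling 8 of the 47 functional groups with a positive median still had one, namely ubiquitin conjugation, xyloglucan endotransglucosylases, metal transporters, ABC proteins, UDP-glycosyltransferases, AP2/ERF factors, C2H2 and B-box zinc fingers and protein kinases. A downward shift cannot turn a negative median, so it says nothing about the 34 groups that had one. Any other positive group median in the text therefore changes direction with that scaling.

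**Figure D1:**
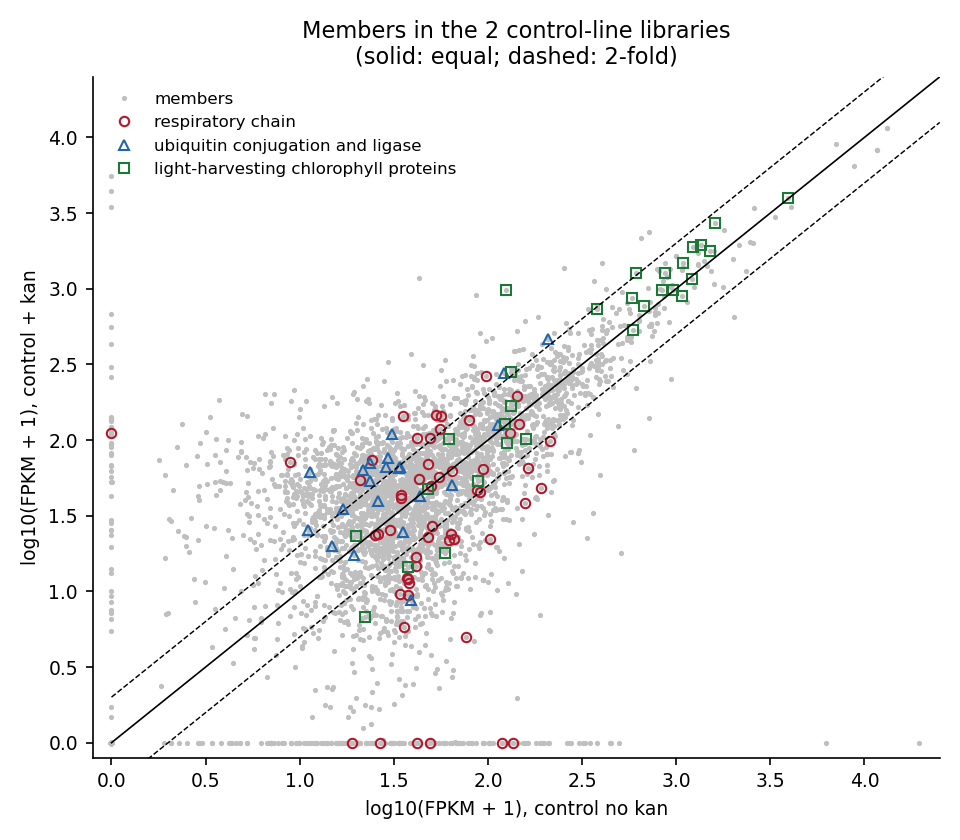
Log10(FPKM + 1) of each member in control + kan (vertical axis) and control no kan (horizontal axis), 3667 genes drawn and 35 beyond the axis limit of 30000 FPKM, with lines at 2-fold. The points spread widely around equality at low FPKM and draw together among abundant transcripts.

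The share of members past 2-fold depended on abundance. It was 55.9% of the 2161 members with a mean of 20 to 50 FPKM, 41.2% of the 760 members at 50 to 100 FPKM, 28.5% of the 393 members at 100 to 200 FPKM and 18.1% of the 226 members at 200 to 500 FPKM. Among the 162 members at or above 500 FPKM it was 27.2%, a class that also holds the shortest assembled loci. Higher and lower genes were nearly balanced in each class, with 29.0% higher and 26.9% lower in the lowest class and 16.0% higher and 11.1% lower in the highest. Just inside the limit of 20 FPKM stood PBB1, a proteasome β subunit, with 10.3 FPKM in control + kan and 50.7 FPKM in control no kan, and just outside it CYP51G1, a sterol demethylase, with 13.1 FPKM in control + kan and 34.7 FPKM in control no kan.

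**Figure D2:**
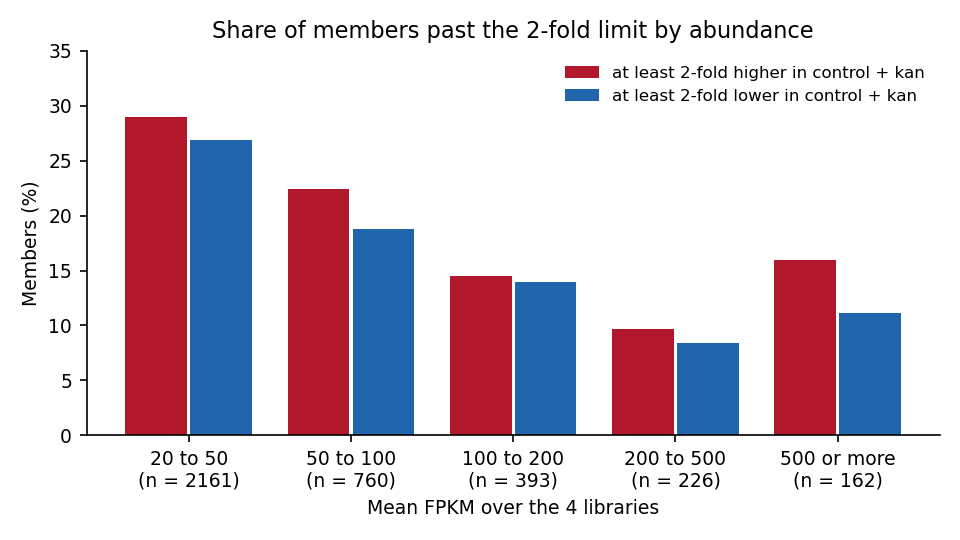
Percent of members at least 2-fold higher and at least 2-fold lower in control + kan than in control no kan, by class of mean FPKM over the 4 libraries. The share past 2-fold falls from 55.9% at 20 to 50 FPKM to 18.1% at 200 to 500 FPKM, and is 27.2% at or above 500 FPKM.

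The most abundant protein-coding transcripts differed by less than 2-fold. The 10 members of highest mean were short assembled loci of no annotated gene, so the 10 most abundant protein-coding genes were taken instead after those values were seen. RBCS1A, a small subunit gene of Rubisco, had 6472 FPKM in control + kan and 8813 FPKM in control no kan, and RBCS3B of the same family had 3452 FPKM in control + kan and 4050 FPKM in control no kan. RCA, the Rubisco activase that releases inhibitory sugar phosphates from the enzyme, had 1942 FPKM in control + kan and 2146 FPKM in control no kan. CAB1, a chlorophyll-binding antenna protein, had 3996 FPKM in control + kan and 3926 FPKM in control no kan. The plastid gene PSBA, for the D1 protein of the photosystem II reaction centre, had 3429 FPKM in control + kan and 2573 FPKM in control no kan. LHB1B2, another antenna gene, had 2703 FPKM in control + kan and 1602 FPKM in control no kan, a log2 difference of 0.75.

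Among the 2844 members with at least 10 FPKM in both control-line libraries, 633 were higher and 370 lower past 2-fold. The genes furthest apart on the higher side have several unrelated roles. The annotated gene with the largest difference, AT1G16170, has no described function. It had 192 FPKM in control + kan (about 223 reads) and 13.8 FPKM in control no kan (about 8 reads), with 4.69 FPKM in mutant + kan and 0 in mutant no kan. ELF5A-3, a translation factor of the eIF5A family that helps ribosomes through difficult stretches of sequence, had 253 FPKM in control + kan (about 431 reads, 95% Poisson interval 230 to 279 FPKM, counting error only) and 21.7 FPKM in control no kan (about 19 reads, 13 to 33.8 FPKM). It was also higher in mutant + kan, at 148 FPKM, than in mutant no kan, at 38.7 FPKM. TCH4, a touch-induced xyloglucan endotransglucosylase that remodels the cell wall, had 369 FPKM in control + kan (344 to 396 FPKM) and 37.8 FPKM in control no kan (27 to 50.6 FPKM). In the mutant line TCH4 stood the other way round, with 20.6 FPKM in mutant + kan and 263 FPKM in mutant no kan. NRPB4, a subunit of RNA polymerase II, had 187 FPKM in control + kan and 19.1 FPKM in control no kan, with 16.5 FPKM in mutant + kan and 0 in mutant no kan. DSS1(V), a small protein of the proteasome lid, had 200 FPKM in control + kan and 18.1 FPKM in control no kan, with 6.11 FPKM in mutant + kan and 0 in mutant no kan. AT1G16170, NRPB4 and DSS1(V) passed the abundance limit only through control + kan, which fixes their higher place in part.

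The histone H4 gene AT5G59970 had 329 FPKM in control + kan and 28.3 FPKM in control no kan, with 67.8 FPKM in mutant + kan and 33.2 FPKM in mutant no kan. Histone H4 genes of Arabidopsis encode the same protein and share much of their sequence, so reads may be split among them. The glutaredoxin gene AT5G18600, for a small thiol oxidoreductase, had 208 FPKM in control + kan and 18.5 FPKM in control no kan. AGP18, an arabinogalactan protein of the cell surface, had 106 FPKM in control + kan and 10.4 FPKM in control no kan, but 0 in mutant + kan and 40.3 FPKM in mutant no kan. AGP18 also passed the abundance limit only through control + kan. The plastid gene RPS4, for a protein of the small plastid ribosomal subunit, had 243 FPKM in control + kan and 27.1 FPKM in control no kan, with 41.9 FPKM in mutant + kan and 97.4 FPKM in mutant no kan. Of these genes, TCH4, AGP18 and RPS4 were lower in mutant + kan than in mutant no kan.

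On the lower side, 3 of the leading protein-coding genes lie in the plastid genome. ATPF, for a stator subunit of the plastid ATP synthase, had 21.4 FPKM in control + kan and 334 FPKM in control no kan, with 178 FPKM in mutant + kan and 270 FPKM in mutant no kan. PSBE, for a cytochrome b559 subunit of photosystem II, had 27.7 FPKM in control + kan and 282 FPKM in control no kan, with 145 FPKM in mutant + kan and 135 FPKM in mutant no kan. PETD, for subunit IV of the cytochrome b6f complex, had 10.5 FPKM in control + kan and 99.4 FPKM in control no kan, with 88.8 FPKM in mutant + kan and 207 FPKM in mutant no kan. ATPF and PETD were thus lower with kanamycin in both lines, ATPF past 2-fold in the control line alone. Plastid transcripts are mostly not polyadenylated as nuclear ones are. Over all 111 plastid-genome members, 17 were higher and 39 (35.1%) were lower, with a median of −0.21 and summed levels of 166004 FPKM in control + kan and 186703 FPKM in control no kan. The 13 members of the mitochondrial genome had a median of −0.35, with 2 higher and 5 lower.

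Among nuclear genes, SHP1, a MADS-box transcription factor known from fruit development, had 12.6 FPKM in control + kan (about 25 reads, 8.17 to 18.6 FPKM) and 150 FPKM in control no kan (about 154 reads, 128 to 176 FPKM). The mutant line gave 70.5 FPKM in mutant + kan and 8.49 FPKM in mutant no kan, the opposite direction. AT1G60000, an RNA recognition motif protein, had 10.4 FPKM in control + kan and 127 FPKM in control no kan, with 31.4 FPKM in mutant + kan and 116 FPKM in mutant no kan, the same direction in both lines. AT2G23672, at 12.1 FPKM in control + kan and 103 FPKM in control no kan, is antisense to AT2G23670, and reads of the pair cannot be told apart without strand. Of the genes that the study itself names for this comparison, ALB3, an insertase of the thylakoid membrane, had 266 FPKM in control + kan and 74.7 FPKM in control no kan but 88 FPKM in mutant + kan and 284 FPKM in mutant no kan. DegP7, a protease of the Deg family, had 57.6 FPKM in control + kan and 7.01 FPKM in control no kan but 9.52 FPKM in mutant + kan and 28 FPKM in mutant no kan. PTAC6, a component of the plastid transcription machinery, had 2.07 FPKM in control + kan and 52.8 FPKM in control no kan but 54.6 FPKM in mutant + kan and 14.5 FPKM in mutant no kan. Each of these 3 genes differed past 2-fold in both lines and in opposite directions, which did not hold for all genes the study names. PSI-P had 732 FPKM in control + kan and 339 FPKM in control no kan, and was inside 2-fold in the mutant line (505 FPKM in mutant + kan, 855 FPKM in mutant no kan). AT1G29920 is listed as AB165, with 980 FPKM in control + kan and 123 FPKM in control no kan, and as CAB2, with 1782 FPKM and 1511 FPKM.

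Genes for transfer RNAs and small nucleolar RNAs were lower in control + kan far more often than the background. Of 131 pre-tRNA members, 3 (2.3%) were higher and 82 (62.6%) were lower in control + kan, with a median log2 difference of −1.94 and quartiles of −4.36 and −0.02. Their FPKM summed to 10478 in control + kan and 21311 in control no kan, and 62 of them were at 0 in control + kan against 23 in control no kan. The mutant line stood the other way, with a summed level of 21273 FPKM in mutant + kan and 5950 FPKM in mutant no kan, with 88 members higher and 3 lower and a median of 1.99. In all, 75 members were lower in control + kan and higher in mutant + kan at any size, 52 of them past 2-fold in both lines. The abundance limit fixes part of this, since 61 of the 131 genes, 41 of the 52 among them, pass it only through mutant + kan. Others, AT5G23665 and AT3G11285 among them, pass it only through control no kan. Of the 74 genes that averaged 20 FPKM or more in the control-line libraries, 33 were higher and 2 lower in mutant + kan (median 0.85), and of the 102 that did so in the mutant-line libraries, 2 were higher and 59 lower in control + kan (median −1.53). The low levels thus fell in control + kan and mutant no kan, the 2 deeper libraries, and the high ones in control no kan and mutant + kan, and the part of library preparation in this was not tested. The nuclear tRNA members are 71 to 88 bases long, poly(A) selection does not recover tRNAs by design, and the length correction of FPKM is large for such short genes.

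The tRNA members are not independent of each other. Their 131 genes hold 78 distinct sets of values, and 71 genes share their 4 values with another, reads of identical genes having no single place in the genome. Counted by distinct sets, 3 were higher and 56 lower. A tRNA carries 1 amino acid and reads codons through its anticodon, and Arabidopsis holds many copies of most of its nuclear tRNA genes. The 5 genes printed below belong to different amino acid families, differ in how far control + kan and control no kan stood apart, and were read from RefSeq (TAIR10.1, whose coordinates equal those of the deposited table for these genes). Each is written 5′ to 3′ with the anticodon in capitals.
AT1G03515, tRNA-Asp, chr1:877648-877719, plus strand: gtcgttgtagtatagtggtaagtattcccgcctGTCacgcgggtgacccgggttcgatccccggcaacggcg
AT1G09110, tRNA-Glu, chr1:2939417-2939488, plus strand: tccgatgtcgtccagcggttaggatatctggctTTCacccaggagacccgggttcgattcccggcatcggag
AT3G11285, tRNA-Arg, chr3:3535146-3535218, plus strand: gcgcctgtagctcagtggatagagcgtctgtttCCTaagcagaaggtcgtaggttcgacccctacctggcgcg
AT5G23665, tRNA-Gln, chr5:7981398-7981469, plus strand: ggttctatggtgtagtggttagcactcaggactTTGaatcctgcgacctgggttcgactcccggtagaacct
AT1G05980, tRNA-Thr, chr1:1817400-1817471, plus strand: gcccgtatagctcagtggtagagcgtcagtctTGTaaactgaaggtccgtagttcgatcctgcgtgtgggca

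AT1G03515, tRNA-Asp, had 7.49 FPKM in control + kan and 33.7 FPKM in control no kan, with 78 FPKM in mutant + kan and 18.9 FPKM in mutant no kan. Its sequence is shared by 21 members, and all 22 tRNA-Asp members were lower in control + kan and higher in mutant + kan past 2-fold. All 22 passed the abundance limit only through mutant + kan, so the limit fixes part of this. AT1G09110, tRNA-Glu, had 79.3 FPKM in control + kan and 206 FPKM in control no kan, with 176 FPKM in mutant + kan and 97.2 FPKM in mutant no kan, and 9 of the 11 members with its anticodon were lower. AT3G11285, tRNA-Arg, had 10.8 FPKM in control + kan and 93.1 FPKM in control no kan and was at 0 in both mutant libraries. This tRNA-Arg gene shares its sequence and values with 4 others, so that 5 genes on the list of lowest ratios are a single measurement. AT5G23665, tRNA-Gln, had 32.1 FPKM in control + kan and 360 FPKM in control no kan, while the median of the 7 members with its anticodon was 217 FPKM in control + kan and 233 FPKM in control no kan. AT5G23665 and those 5 tRNA-Arg genes passed the abundance limit only through control no kan, which fixes their lower place in part. AT1G05980, tRNA-Thr, was the closest of the printed genes, with 584 FPKM in control + kan and 732 FPKM in control no kan, and it had 382 FPKM in mutant + kan and 0 in mutant no kan. The 17 members for tRNA-Gly with the anticodon GCC were at 0 in both control-line libraries and passed the abundance limit only through mutant + kan. Of the small nucleolar RNAs, which guide modification of ribosomal RNA, 8 of 29 (27.6%, near the background) were higher and 19 (65.5%) lower, with 16 at 0 in control + kan and 6 at 0 in control no kan. Their median level was 77.9 FPKM in control no kan and 0 in each other library, so the abundance limit fixes part of the lower count. The mutant line had 9 higher and 4 lower.

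Among functional groups of at least 20 members, the list for the respiratory chain and ATP synthase had the largest share of lower genes. These genes encode the mitochondrial complexes that pass electrons from NADH and succinate to oxygen and the enzyme that makes ATP from the proton gradient so formed. Of 53 members, 11 (20.8%) were higher and 25 (47.2%) lower (median −0.89, quartiles −1.74 and 0.44), and the summed level was 2952 FPKM in control + kan and 3461 FPKM in control no kan. Since 6 members were at 0 in control + kan and 1 in control no kan, the median was −0.23 with such genes left out. The mutant line had 20 higher and 13 lower (median 0.00). Complex I (NADH dehydrogenase) and complex II (succinate dehydrogenase) had the lower medians, −1.30 over 21 members and −1.08 over 9, against −0.23 over 8 members of complex III and −0.17 over 12 of complex IV. The 3 other members, with ATP synthase among them, had 1 higher and 1 lower (median −0.21). ATP5 of ATP synthase had 126 FPKM in control + kan and 146 FPKM in control no kan. The lower share of the list is thus not one of ATP synthase.

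Single subunits went both ways. QCR9 of complex III, AT3G52730, had 47.5 FPKM in control + kan and 190 FPKM in control no kan, with 202 FPKM in mutant + kan and 76.7 FPKM in mutant no kan. QCR8 of the same complex, AT3G10860, had 64.8 FPKM in control + kan and 162 FPKM in control no kan, with 217 FPKM in mutant + kan and 115 FPKM in mutant no kan. Both were lower in control + kan than in control no kan, and both were higher in mutant + kan than in mutant no kan. The complex I subunit AT3G18410 had 21.3 FPKM in control + kan and 102 FPKM in control no kan, and AT4G20150 of complex I had 37.6 FPKM in control + kan and 156 FPKM in control no kan. On the higher side, COX17, a copper chaperone for cytochrome c oxidase, had 143 FPKM in control + kan and 34.2 FPKM in control no kan, and the complex I subunit AT5G11770 had 146 FPKM in control + kan and 52.1 FPKM in control no kan. In complex II SDH1-1 had 21.8 FPKM in control + kan and 47.2 FPKM in control no kan, SDH3-1 had 11 FPKM in control + kan and 36.8 FPKM in control no kan, and SDH4 was at 0 in control + kan against 48.1 FPKM in control no kan. SDH1-1, SDH3-1 and SDH4 encode the flavoprotein and membrane subunits of the enzyme, and 6 of the 9 complex II members were lower. The neighbouring Rieske genes of complex III stood opposite each other, AT5G13440 with 73.3 FPKM in control + kan and 23.3 FPKM in control no kan, and AT5G13430 with 20.9 FPKM in control + kan and 61.4 FPKM in control no kan. They are near-identical copies, and the share of reads given to each is uncertain.

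**Figure D3:**
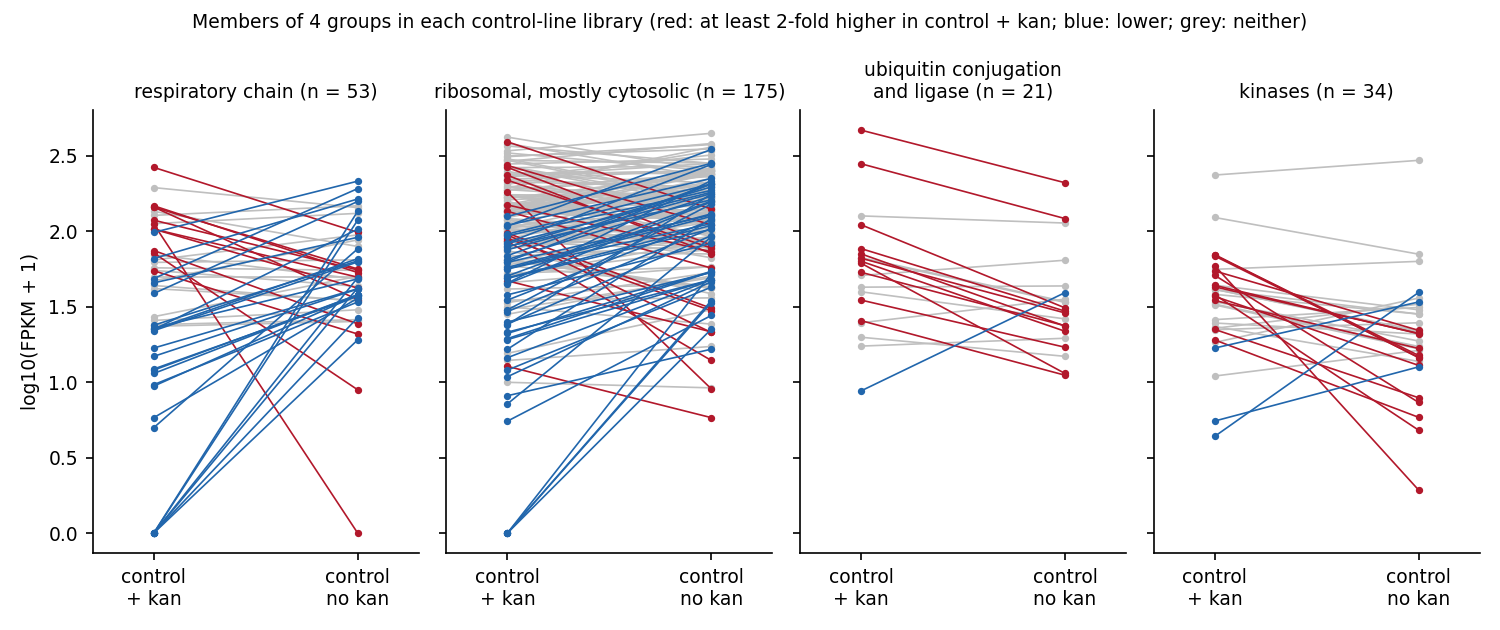
Log10(FPKM + 1) of each member of 4 groups in control + kan and control no kan, 1 line per gene, red where at least 2-fold higher in control + kan, blue where lower and grey where neither. Lines run both ways in each group, and the respiratory chain has 25 of 53 members lower while the ubiquitin conjugation list has 11 of 21 higher.

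Plant genes for mitochondrial and ribosomal proteins are known for the site II element in their promoters, TGGGCC or TGGGCT, and ribosomal genes also for the telo box, AAACCCTA. Both were searched on both strands in the 250 bases before each gene start of RefSeq TAIR10.1, and a gene was counted once however many matches, overlapping ones included, it had. A site II element of either spelling was found before 50.9% of the 53 respiratory chain members and before 68.0% of the 175 members of the mostly cytosolic ribosomal list, against 27.8% of 3305 members with a promoter and 19.2% of all 27443 promoters. Within the respiratory chain it did not separate lower genes from the others: 52.0% of the 25 lower members and 50.0% of the 28 others had it. In that ribosomal list 55.8% of the 43 lower members and 72.0% of the other 132 had it. The telo box was found before 21.1% of the ribosomal members and 1.9% of the respiratory ones, against 4.5% of all promoters. Over all members a site II element was found before 22.9% of the 830 higher ones and 29.0% of the 656 lower ones. A match is a run of letters and not a measured binding site. Promoters of 2 respiratory genes that were lower in control + kan are printed to show how the elements lie, 5′ to 3′ towards the gene start, with site II elements on either strand in capitals.
AT3G52730, chr3:19544366-19544615, minus strand: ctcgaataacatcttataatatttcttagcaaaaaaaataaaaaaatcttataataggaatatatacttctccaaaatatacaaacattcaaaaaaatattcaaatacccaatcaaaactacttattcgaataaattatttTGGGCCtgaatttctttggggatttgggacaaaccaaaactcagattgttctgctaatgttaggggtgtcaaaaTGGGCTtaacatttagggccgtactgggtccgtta
AT4G37830, chr4:17788835-17789084, minus strand: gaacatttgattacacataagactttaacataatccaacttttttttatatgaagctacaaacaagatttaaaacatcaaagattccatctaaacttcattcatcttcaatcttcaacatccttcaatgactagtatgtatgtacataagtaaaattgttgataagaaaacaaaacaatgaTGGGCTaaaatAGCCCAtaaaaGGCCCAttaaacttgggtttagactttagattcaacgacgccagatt

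AT3G52730 (QCR9) has 2 matches and was lower in control + kan, as given above. AT4G37830, for a cytochrome c oxidase subunit, has 3 matches and had 97 FPKM in control + kan and 213 FPKM in control no kan, with 204 FPKM in mutant + kan and 145 FPKM in mutant no kan. QCR8 has none in this window and was lower like QCR9.

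Ribosomal proteins of the list for the cytosol, whose ribosomes translate nuclear messages, were seldom past 2-fold on the higher side. The list was found by words and is not pure: 150 of its 175 members have cytosol, 40S or 60S in their description, and it holds plastid proteins such as EMB3105 and AT3G13120. Of the 175 members, 14 (8.0%) were higher and 43 (24.6%) lower (median −0.30, quartiles −0.99 and 0.26), and the list summed to 21392 FPKM in control + kan and 24587 FPKM in control no kan. The mutant line had 50 higher and 30 lower (median 0.18). Of the 150 with those words, 11 were higher and 36 lower in control + kan (median −0.35). AT5G41520, of the S10 family, had 23 FPKM in control + kan and 175 FPKM in control no kan, with 106 FPKM in mutant + kan and 22 FPKM in mutant no kan. AT1G48830, of the S7e family, had 15.5 FPKM in control + kan and 120 FPKM in control no kan, with 71 FPKM in mutant + kan and 18.1 FPKM in mutant no kan. On the higher side AT5G09510, of the S19 family, had 93.4 FPKM in control + kan and 20.3 FPKM in control no kan. Abundant members were closer, STV1 (L24) with 289 FPKM in control + kan and 379 FPKM in control no kan. Most of these proteins have several near-identical gene copies, so values of single genes are less certain than the group's.

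Nuclear genes for plastid ribosomal proteins, the machinery that kanamycin acts on in sensitive plants, were close to even. Of 35 members 0 were higher and 3 (8.6%) lower past 2-fold, with a median of −0.19, and the mutant line had a median of 0.05. Their median level was 192 FPKM in control + kan and 207 FPKM in control no kan. Among all members at 200 to 500 FPKM, 9.7% were higher and 8.4% lower. The lower ones included EMB3137, of the small subunit, with 70.3 FPKM in control + kan and 311 FPKM in control no kan, and PSRP4, a plastid-specific ribosomal protein, with 53.3 FPKM in control + kan and 222 FPKM in control no kan. Translation factors had 10 of 46 members higher and 5 lower (median 0.02), and aminoacyl-tRNA synthetases, which charge tRNAs, had 3 of 13 higher and 0 lower (median 0.40). The nuclear gene for plastid elongation factor Ts, emb2726, had 8.66 FPKM in control + kan and 140 FPKM in control no kan, but 98.6 FPKM in mutant + kan and 48.1 FPKM in mutant no kan. Plastid import, the TOC and TIC machinery that takes nuclear-encoded proteins through the envelope, had 0 of 12 members higher and 3 (25.0%) lower (median −0.57), with a median of 0.44 in the mutant line. TOC33, a receptor of that machinery, had 7.91 FPKM in control + kan and 25.7 FPKM in control no kan, with 62.1 FPKM in mutant + kan and 11.6 FPKM in mutant no kan. HSP93-III, a stromal chaperone, had 23.7 FPKM in control + kan and 58 FPKM in control no kan.

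Nuclear genes for photosynthetic complexes were mostly inside 2-fold. Photosystem I genes had 2 of 14 higher and 0 lower (median 0.35), photosystem II genes 2 of 29 higher and 3 lower (median 0.15), and light-harvesting genes 3 of 29 higher and 3 lower (median 0.23). The light-harvesting genes summed to 25240 FPKM in control + kan and 19633 FPKM in control no kan. LHCB3, an antenna protein that links trimers to the photosystem II core, had 1270 FPKM in control + kan and 612 FPKM in control no kan.

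Among groups of at least 20 members, the genes for ubiquitin conjugation had the largest share of higher genes. Conjugating enzymes (E2) take ubiquitin from the activating enzyme and, with a ligase, place it on proteins, which marks many of them for the proteasome. Of 21 members of the list, 11 (52.4%) were higher and 1 (4.8%) was lower, with a median of 1.04, which was 0.32 by upper-quartile scaling, and quartiles of 0.16 and 1.20. The mutant line also had 11 higher, against 5 lower, with a median of 1.03, and 8 members were higher in both. The 17 E2 genes among them had a median of 1.16 and summed to 1632 FPKM in control + kan and 864.7 FPKM in control no kan, against 1234 FPKM in mutant + kan and 979.5 FPKM in mutant no kan. UBC10 had 465 FPKM in control + kan and 208 FPKM in control no kan, with 535 FPKM in mutant + kan and 118 FPKM in mutant no kan. UBC19 had 109 FPKM in control + kan and 30 FPKM in control no kan, with 92.2 FPKM in mutant + kan and 44.7 FPKM in mutant no kan. The control line had UBC20 at 69.6 FPKM in control + kan and 22.5 FPKM in control no kan. UBC28 was past 2-fold in the control line alone, with 278 FPKM in control + kan and 120 FPKM in control no kan, and 113 FPKM in mutant + kan and 182 FPKM in mutant no kan. UBC8 was near equal, with 125 FPKM in control + kan and 112 FPKM in control no kan, and UBC36 was the lower member, with 7.74 FPKM in control + kan and 38.1 FPKM in control no kan. The E2 genes of 1 subfamily are similar in sequence, and the division of reads among UBC8, UBC10 and UBC28 is uncertain. The proteasome itself was not shifted as a group, with 5 of 29 members higher and 8 lower and a median of 0.27. PBG1, one of its β subunits, had 84.7 FPKM in control + kan and 22.5 FPKM in control no kan, and PBB1 stood opposite to it.

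Protein kinases and phosphatases were more often higher than the background. Of 34 receptor-like and other protein kinases, 13 (38.2%) were higher and 3 (8.8%) lower (median 0.88, which was 0.16 by upper-quartile scaling), against a median of 0.00 in the mutant line. FER, the FERONIA receptor kinase of cell growth, had 68.8 FPKM in control + kan and 13.5 FPKM in control no kan. RLK902 was close, with 234 FPKM in control + kan and 293 FPKM in control no kan. Phosphatases had 7 of 15 members higher and 3 lower, among them the purple acid phosphatase PAP10 with 95.1 FPKM in control + kan and 22.3 FPKM in control no kan. TAP38, the phosphatase that dephosphorylates light-harvesting proteins, was among the lower ones, with 25.7 FPKM in control + kan and 67.2 FPKM in control no kan. Calmodulin and calcium-binding genes had 11 of 45 higher and 5 lower, a share near the background, led by CAM3 (calmodulin) with 193 FPKM in control + kan and 42.1 FPKM in control no kan.

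Hormone lists held members on both sides. The abscisic acid list had 11 of 40 (27.5%) higher and 6 lower (median 0.32), with a median of −0.23 in the mutant line. Its receptors PYL4 and PYL5 were higher, PYL4 with 227 FPKM in control + kan and 54.4 FPKM in control no kan and PYL5 with 85.8 FPKM in control + kan and 23.8 FPKM in control no kan. KIN2, a cold- and abscisic acid-induced gene, was lower, with 14.6 FPKM in control + kan and 61 FPKM in control no kan. The auxin list had 11 of 40 higher and 7 lower (median 0.43). Its Aux/IAA repressors were divided, ATAUX2-11 with 136 FPKM in control + kan and 24.4 FPKM in control no kan, and IAA7 with 19.3 FPKM in control + kan and 87.5 FPKM in control no kan. Genes of the circadian clock and light response had 11 of 29 (37.9%) higher and 6 lower (median 0.66, which was −0.07 by upper-quartile scaling), with a median of −0.27 in the mutant line. PIF3, a phytochrome-interacting transcription factor, had 46.6 FPKM in control + kan and 13.5 FPKM in control no kan. The clock-regulated RNA-binding proteins GRP7 and CCR1 were lower, GRP7 with 224 FPKM in control + kan and 460 FPKM in control no kan and CCR1 with 90 FPKM in control + kan and 189 FPKM in control no kan.

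Among transcription factors, 5 of 12 AP2/ERF members (41.7%) were higher and 2 lower (median 0.91, which was 0.18 by upper-quartile scaling), while the mutant line had 2 higher and 6 lower (median −1.03). The higher member AT3G60490 had 6.55 FPKM in control + kan and 0 in control no kan. It passed the abundance limit only through mutant no kan, at 162 FPKM, and so counts as lower in the mutant line. ERF3, ERF-1 and ESE3, also lower there, would fall under the limit without their mutant no kan values. The limit thus fixes part of the mutant-line count and median. EBP, an ethylene-responsive factor, had 315 FPKM in control + kan and 143 FPKM in control no kan, with 180 FPKM in mutant + kan and 197 FPKM in mutant no kan. DREB26 had 59.3 FPKM in control + kan and 15.4 FPKM in control no kan, and ESE3 of the same family was lower, with 12.1 FPKM in control + kan and 37 FPKM in control no kan. C2H2 and B-box zinc fingers had 5 of 11 higher and 1 lower (median 0.92, which was 0.26 by upper-quartile scaling). Among the higher ones, COL4 had 109 FPKM in control + kan and 45.7 FPKM in control no kan. Others were near the floor in control no kan, ZAT7 at 1.88 FPKM (about 1 read), AT3G02790 at 4.47 FPKM (about 2 reads) and AT1G68190 at 1 FPKM (about 1 read). ZAT7 and AT1G68190 passed the abundance limit only through mutant no kan, at 211 FPKM and 108 FPKM. The list of splicing and RNA recognition motif proteins had 16 of 37 (43.2%) higher and 7 (18.9%) lower (median 0.41), against 6 higher and 11 lower in the mutant line. Its member AT5G59950 had 110 FPKM in control + kan and 17.9 FPKM in control no kan. Histones went both ways, with 8 of 31 higher and 10 lower, and chaperones had 6 of 45 higher and 11 lower.

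Several lists of the cell wall and cell surface had higher members beyond the background. Xyloglucan endotransglucosylases, the enzymes that cut and rejoin wall xyloglucan, had 5 of 13 (38.5%) higher and 2 lower (median 0.78, which was 0.03 by upper-quartile scaling). In the mutant line 1 was higher and 4 were lower (median 0.23). Besides TCH4, XTR6 had 59.7 FPKM in control + kan and 24.6 FPKM in control no kan, while XTR8 had 17.4 FPKM in control + kan and 55.8 FPKM in control no kan and XTH7 was near equal. Arabinogalactan and fasciclin-like proteins had 8 of 20 higher and 4 lower (median 0.66, which was −0.07 by upper-quartile scaling), against 5 higher and 5 lower in the mutant line. AGP15 had 647 FPKM in control + kan and 184 FPKM in control no kan, FLA9 had 135 FPKM in control + kan and 58.1 FPKM in control no kan, and AGP12 was lower, with 33.5 FPKM in control + kan and 109 FPKM in control no kan. Expansins, which loosen the wall, numbered 6, with 2 higher and 3 lower and a median of −0.66, and 0.62 when members were chosen without mutant no kan. EXPA1 was lower, with 26 FPKM in control + kan and 102 FPKM in control no kan, and stood the other way in the mutant line, with 161 FPKM in mutant + kan and 25.9 FPKM in mutant no kan. EXLA1, an expansin-like protein, was higher, with 126 FPKM in control + kan and 1.38 FPKM in control no kan (about 1 read). EXLA1 passed the abundance limit only through control + kan.

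Actins and actin-binding proteins had 5 of 14 higher and 1 lower (median 0.67, which was −0.08 by upper-quartile scaling), with a median of −0.60 in the mutant line. The actin-depolymerizing factors were on the higher side, ADF1 with 118 FPKM in control + kan and 30.6 FPKM in control no kan and ADF4 with 176 FPKM in control + kan and 73.5 FPKM in control no kan. ACT2 was near equal, with 202 FPKM in control + kan and 192 FPKM in control no kan, and ACT7 was lower, with 50.6 FPKM in control + kan and 121 FPKM in control no kan. Aquaporins, the water channels, had 6 of 16 (37.5%) higher and 2 lower (median 0.24). The plasma membrane aquaporin PIP3 had 397 FPKM in control + kan and 153 FPKM in control no kan, but PIP1A had 47.2 FPKM in control + kan and 98.5 FPKM in control no kan.

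Lists of transporters went both ways: sugar transporters had 0 of 10 higher and 2 lower (median −0.59, which was 0.06 with members chosen on the control-line libraries), amino acid and peptide transporters 1 of 6 higher and 2 lower (median −0.40), mitochondrial carriers 0 of 5 higher and 2 lower (median −0.77, which was 0.18 with a limit of 10 FPKM) and vacuolar proton pumps 1 of 15 higher and 3 lower. The list found by words for ABC proteins, whose ATP-binding domain is shared by transporters and soluble proteins, had 5 of 9 (55.6%) higher and 2 lower (median 1.20, which was 0.47 by upper-quartile scaling), with a median of 0.34 in the mutant line, and 3 genes were higher in both lines. Most of its higher members are not membrane transporters. ABCF5, a soluble protein of the ABCF family, had 155 FPKM in control + kan and 56.5 FPKM in control no kan, with 111 FPKM in mutant + kan and 40.7 FPKM in mutant no kan. ATH13, a kinase-like protein placed in the list by its name, had 136 FPKM in control + kan and 40 FPKM in control no kan. Of those with membrane domains, ABCB28 had 44.9 FPKM in control + kan and 8.5 FPKM in control no kan, and PEN3, a transporter of the plasma membrane, was near equal at 82.1 FPKM in control + kan and 72.1 FPKM in control no kan. UDP-glycosyltransferases, which add sugars to small molecules, had 4 of 8 higher and 1 lower (median 1.10, which was 0.39 by upper-quartile scaling), against a median of −0.33 in the mutant line. UGT74F2, which glycosylates salicylic acid, had 61.7 FPKM in control + kan and 18.9 FPKM in control no kan. Glutathione transferases had 7 of 18 (38.9%) higher and 0 lower (median 0.31), against a median of −0.06 in the mutant line. GSTZ1 had 68.7 FPKM in control + kan and 11.6 FPKM in control no kan, while GSTF9, a more abundant member, was inside 2-fold with 201 FPKM in control + kan and 347 FPKM in control no kan. Metal transporters had 3 of 7 higher and 1 lower (median 0.96, which was 0.22 by upper-quartile scaling), although the median was −0.41 with members chosen on the control-line libraries alone. NRAMP4, which exports iron and manganese from the vacuole, was just inside 2-fold, with 56.7 FPKM in control + kan and 28.7 FPKM in control no kan. AT5G14910, of the heavy-metal transport family, was the lower member, with 34.6 FPKM in control + kan and 108 FPKM in control no kan.

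Glucosinolate genes, for the sulphur-containing defence compounds of the cabbage family, had 0 of 16 higher and 6 (37.5%) lower (median −0.32), with a median of −0.71 in the mutant line. MAM1, which lengthens the methionine side chain, had 13.7 FPKM in control + kan and 42.6 FPKM in control no kan, and CYP83A1, which oxidizes the aldoximes, had 17.7 FPKM in control + kan and 53.1 FPKM in control no kan. The myrosinase TGG1, a guard cell marker, was the most abundant of the list and was inside 2-fold, with 325 FPKM in control + kan and 206 FPKM in control no kan. MLP-like proteins had 0 of 9 higher and 3 lower (median −0.80), against a median of 0.41 in the mutant line, and MLP423 had 59.6 FPKM in control + kan and 121 FPKM in control no kan. Lectins had 2 of 13 higher and 3 lower. Glycine-rich proteins had 4 of 20 higher and 7 lower (median −0.52), GRP9 having 11.4 FPKM in control + kan and 84 FPKM in control no kan. Of the 395 members described only as of unknown function, 136 (34.4%) were higher and 87 lower (median 0.32).

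**Figure D4:**
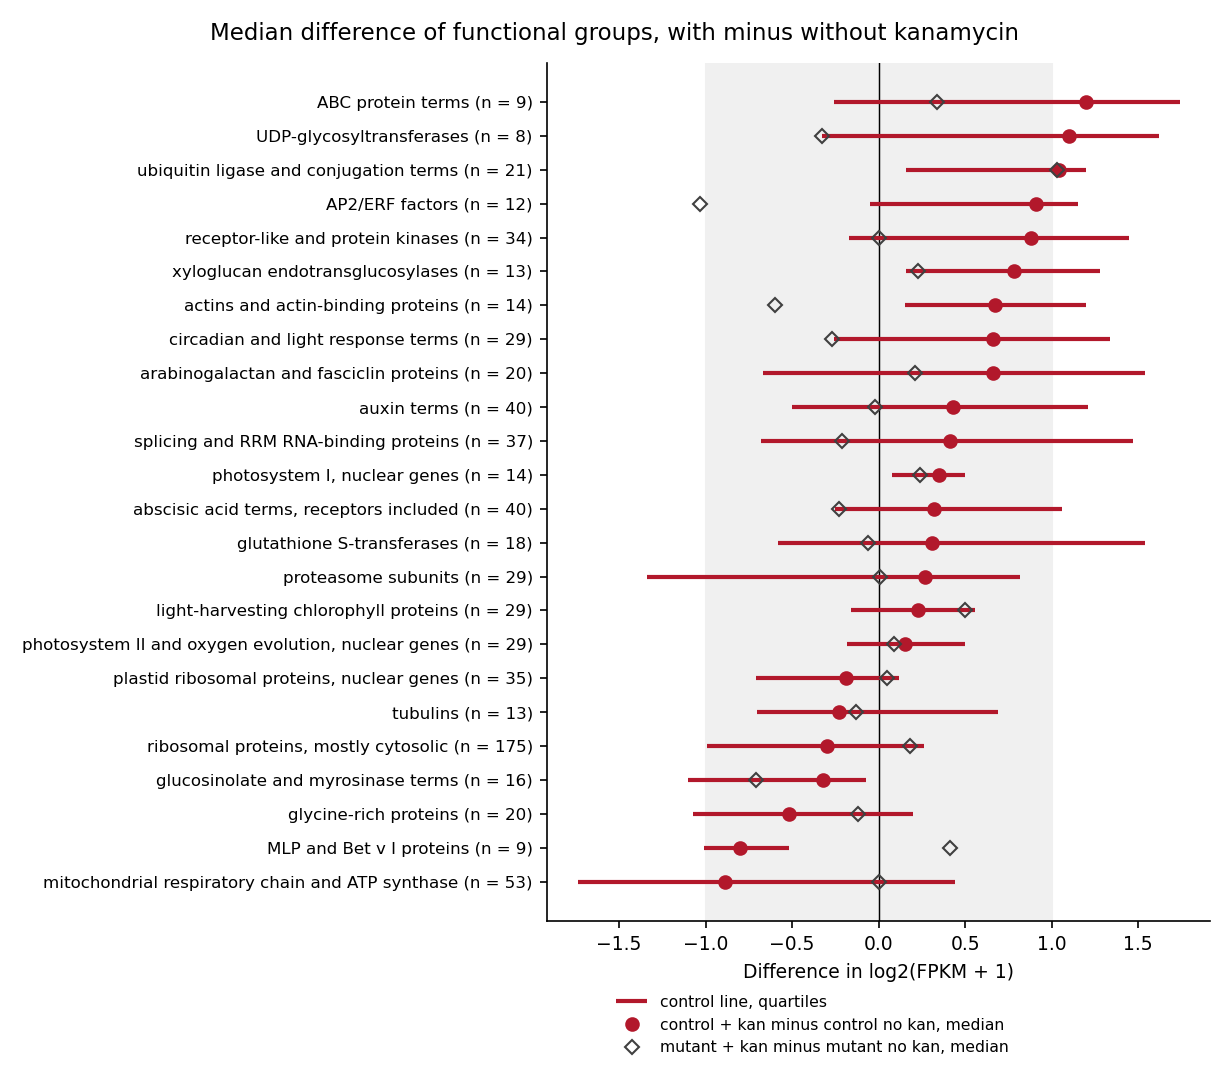
Median log2 difference of 24 functional groups in the control line (control + kan minus control no kan) and in the mutant line (mutant + kan minus mutant no kan), circles and diamonds for the medians and bars for the quartiles of the control line. The shaded band spans differences under 2-fold. Ubiquitin conjugation is above 0 in both lines, at 1.04 and 1.03. AP2/ERF factors stand at 0.91 in the control line and −1.03 in the mutant line, the latter fixed in part by the abundance limit.

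The same contrast in the mutant line shares no library with that of the control line. The study describes stunted roots in mutant seedlings with kanamycin, so the lines also differ in the state of the seedlings. Of the 3702 members, 261 were higher past 2-fold in both lines and 258 lower in both, 519 in the same direction in all. In opposite directions, 261 were higher in the control line and lower in the mutant line and 234 the reverse, 495 in all. Of the genes higher in the control line, 29% were also higher in the mutant line and 29% were lower there, and of those lower in the control line, 31.6% were lower and 28.6% higher. Spearman's rho between the 2 sets of log2 differences was 0.01 across the 3702 members and 0.03 across the 781 members that averaged 100 FPKM or more, as descriptions across genes. In the ubiquitin conjugation list 8 of 21 members were higher in both lines.

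**Figure D5:**
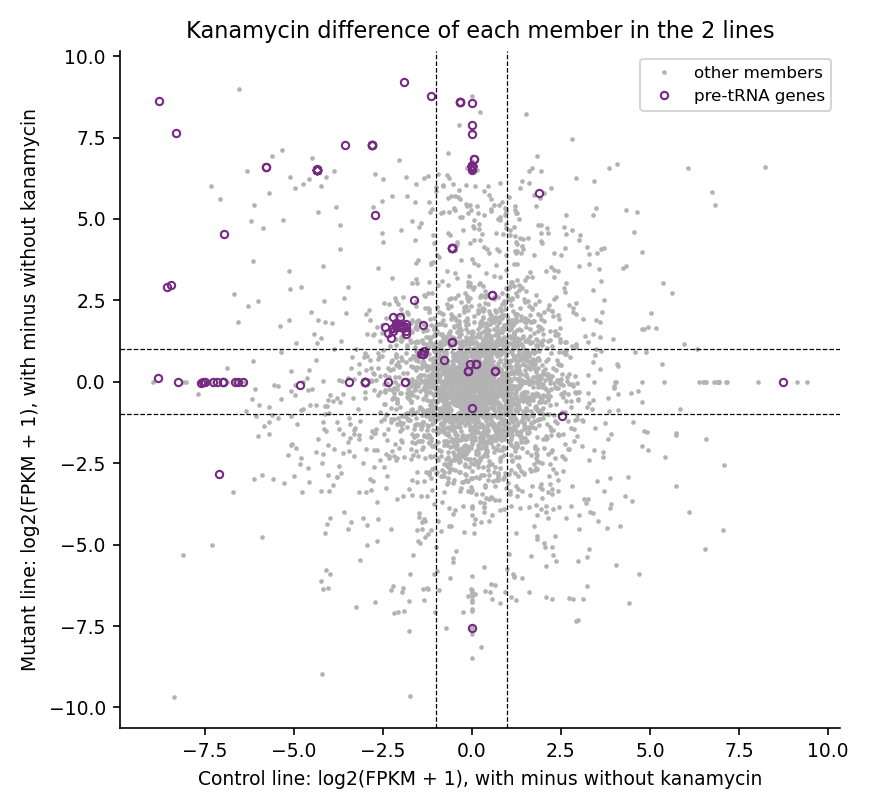
Log2 difference with against without kanamycin of each member in the control line (horizontal axis) and in the mutant line (vertical axis) on the log2(FPKM + 1) scale, with dashed lines at 2-fold, 3646 genes drawn and 56 beyond the limit of 10. The points form no slope (Spearman's rho 0.01), and 75 of all 131 pre-tRNA genes, drawn or not, are below 0 in the control line and above 0 in the mutant line, a count that the abundance limit fixes in part.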

How the data were processed

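Per the labels and the paper's methods, poly(A) RNA of whole seedlings was made into single-end libraries from gel-purified short fragments. The authors aligned reads to TAIR10 with TopHat2 2.0.5 and obtained FPKM with Cufflinks 2.0.2 and Cuffdiff 1.3.0, and the header of the deposited table calls these values rpkm. The authors' log2 fold change, status, p and q columns were not used. The table lists 33624 genes and loci: 7 without a value and 78 whose copies differed were left out, and 33539 were used, with 27 values of 0.01 that the table writes for 0 set to 0.

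Differences were taken on log2(FPKM + 1), which understates changes of low genes. Members average 20 FPKM or more across the 4 libraries. A gene can thus be a member only through the library where it is high, which fixes its direction in part. Groups were picked by words in the description column. The members and lists were chosen with earlier results of these data known, and the word lists were corrected after members were seen (false matches were removed, and the abscisic acid and auxin lists were broadened). Genes were named by rule: the 10 most abundant, the 15 furthest apart per direction with at least 10 FPKM in both control-line libraries, and in a group up to 4 most abundant and 3 per direction, besides WBC19, TT4 and genes the study names. TOC33, UBC36, SDH1-1, SDH3-1, SDH4, AT5G13430, ABCB28, EMB3105, AT3G13120, AT1G03515, AT1G09110 and AT1G05980 were added after their values were seen. Reads were estimated from the smallest steps of FPKM with RefSeq TAIR10.1 exon lengths less 200 bases for transcripts over 500 bases, for 3310 members, with exact Poisson intervals. These cover counting error only. The size rule was tested on simulated data, and no result of that is given or relied on in the text. Python 3.11.15, numpy 2.4.6, pandas 2.3.3, scipy 1.17.1 and matplotlib 3.10.9 were used. Other pseudocounts, abundance limits, scalings and member rules were tried. 1 promoter sequence is not reported here.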

Additional observations from a re-analysis of the deposited data

Results flagged for a closer look

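In 5 groups the control line and the mutant line had medians on opposite sides of 0 and at least 0.5 from it, and none of these differences between lines was tested, since each rests on 1 library per condition. Expansins had a median log2 difference of −0.66 in the control line and 1.94 in the mutant line over 6 members. GDSL lipases had 0.70 in the control line and −1.10 in the mutant line over 6 members, AT1G29670 having 112 FPKM in control + kan and 28 FPKM in control no kan. Actins and actin-binding proteins had 0.67 in the control line and −0.60 in the mutant line over 14 members. Metal transporters had 0.96 in the control line and −0.53 in the mutant line over 7 members. AP2/ERF factors had 0.91 in the control line and −1.03 in the mutant line over 12 members, the latter fixed in part by the abundance limit.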

How the results depend on the processing

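No paired analysis was possible because each condition has 1 library and the labels give no replicate numbers, and for the same reason no library could be left out in turn. Of 274 values of the 24 group medians at or past 0.5 under alternatives, 235 kept their direction, 16 turned and 23 were 0.00, 22 of these with no limit on abundance. With a pseudocount of 5, 5 groups had a median of −0.5 or lower, against 8. With a limit of 10 FPKM, 1761 members were higher and 1695 lower, 1159 the same way and 1047 opposite ways in the 2 lines; with 50 FPKM these counts were 275, 235, 145 and 112 (9 groups at 0.5 or higher, 1 at −0.5 or lower), with 100 FPKM 105, 92, 43 and 34 (1 and 2 groups), and with no limit 3951, 6466, 2615 and 3149 (0 and 0 groups). Upper-quartile scaling gave 480 higher and 1428 lower, a median of −0.61, and 0 and 53 groups. Leaving out genes at 0 gave a median of 0.16 and 4 groups at −0.5 or lower. The remaining alternatives were added after seeing the data: members chosen on the 2 control-line libraries gave a median of 0.32 with 27 and 4 groups, members chosen without mutant no kan a median of 0.16 with 3 groups at −0.5 or lower, and nuclear protein-coding genes of at least 500 bases a median of 0.14. Directions turned for mitochondrial carriers (0.18 at 10 FPKM and 0.18 without mutant no kan), for chlorophyll and haem synthesis (−0.23), pectin (−0.18), arabinogalactan proteins (−0.07), GDSL lipases (−0.03), actins (−0.08), circadian and light genes (−0.07), DEAD-box helicases (−0.16) and seed storage and LEA proteins (−0.15) under upper-quartile scaling, for beta-oxidation (0.16 with genes at 0 left out and 0.21 without mutant no kan), for metal transporters (−0.41 on the control-line libraries and −0.19 without mutant no kan), for sugar transporters (0.06 on the control-line libraries) and for expansins (0.62 without mutant no kan). The cause was not tested, except that choosing members on fewer libraries changes which genes enter. Depth limits the low end: the median member rested on 37.6 reads in control no kan.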
